A study of Drosophila melanogaster with 2 samples.

Results

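The regions described here were peaks of the CG14014 fusion protein that lay just upstream of the start site of a single gene, 785 of the 3216 reproducible peaks of the series (24.4%). They came from chromatin immunoprecipitation with sequencing (ChIP-seq), in which DNA bound by a protein is recovered with an antibody and mapped. Whole Drosophila melanogaster embryos aged 0 to 24 h carried CG14014 fused to enhanced GFP, and an antibody against GFP was used. There were 2 biological replicates of 1 group, of strain CG14014-GFP. No embryos without the fusion protein were analysed here, so none of the values below can be set against a mock precipitation. The labels do not say which cells of the embryo made the fusion protein, and its binding site was not taken from any outside source. A peak was kept when its summit, the position of highest signal, had its nearest protein-coding transcription start site (TSS) within 500 bp and downstream of it, and when only 1 protein-coding gene had a TSS within 500 bp. The rule used position alone and no measured signal. The 785 single-gene upstream peaks made up 50.03% of the 1569 promoter peaks. The others were 508 upstream peaks with TSSs of several genes within 500 bp, called shared upstream peaks here, and 276 peaks with the summit downstream of the nearest TSS.

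A fly promoter holds the TSS, core promoter elements close to it, and a nucleosome-poor stretch upstream where transcription factors bind. Core promoter elements include the TATA box, the initiator and the DNA replication-related element (DRE), TATCGATA, which is bound by the factor Dref at many housekeeping genes. Many fly genes lie head to head and share such a stretch. A summit with a single gene's TSS nearby can be placed relative to 1 direction of transcription. Signal here is the authors' value per peak, whose scale is not given, and it was used for describing peaks and ranking them within a list. Depth is unknown, since no file gave read counts. Percentages carry 95% Wilson intervals or none, and these cover counting error over peaks or genes only. Peaks are not independent replicates, so a p-value over them says nothing of the variation among embryos.

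The DNA under the strongest peaks is shown first, because it carries the AT-rich sequence that the results below turn on. Each window holds 101 bases centred on the summit, printed 5' to 3' along the strand of the served gene, from the release 6 (dm6) reference sequence of RefSeq. Capitals mark words that the results below describe, on either strand. These are TTAAAA, the run AATAAA of the polyadenylation signal, the homeodomain core TAATTA, the GAGA factor site GAGAGA and the DRE. The first 6 are 6 of the 8 strongest.
CG14100: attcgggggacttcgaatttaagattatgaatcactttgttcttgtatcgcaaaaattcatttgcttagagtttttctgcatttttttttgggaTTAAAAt
Ugalt: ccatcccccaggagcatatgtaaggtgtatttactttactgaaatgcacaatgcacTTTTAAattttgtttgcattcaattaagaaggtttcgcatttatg
ph-p: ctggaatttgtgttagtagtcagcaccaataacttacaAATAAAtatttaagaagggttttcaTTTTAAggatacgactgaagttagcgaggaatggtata
PNPase: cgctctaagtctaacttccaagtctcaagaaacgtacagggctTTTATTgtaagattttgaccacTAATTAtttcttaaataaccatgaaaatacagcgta
CG18549: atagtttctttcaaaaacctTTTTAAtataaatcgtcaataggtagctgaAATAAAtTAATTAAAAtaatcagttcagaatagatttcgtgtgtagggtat
Gapdh2: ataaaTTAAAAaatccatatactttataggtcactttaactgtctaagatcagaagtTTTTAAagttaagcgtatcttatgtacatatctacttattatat
The next is the strongest such window with GAGAGA or its reverse complement, and the last holds the DRE and ranks 3 by signal among the 20 peaks with that word. The last was added after the positions of that word were seen.
nebu: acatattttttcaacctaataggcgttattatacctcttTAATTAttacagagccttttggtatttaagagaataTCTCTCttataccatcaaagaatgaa
eEF1gamma: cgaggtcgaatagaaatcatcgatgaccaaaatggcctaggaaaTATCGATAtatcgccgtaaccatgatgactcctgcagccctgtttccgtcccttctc
The windows lie at chr3L:19590568-19590668, minus strand (CG14100), chrX:2703843-2703943, minus strand (Ugalt), chrX:2137304-2137404, minus strand (ph-p), chr3R:31404601-31404701, minus strand (PNPase), chr3R:12449128-12449228, plus strand (CG18549), chrX:15867929-15868029, plus strand (Gapdh2), chr3L:12843214-12843314, minus strand (nebu) and chr3R:29220087-29220187, plus strand (eEF1gamma). The first 6 hold runs of A and T, with a GC content of 22.8% at Gapdh2, 24.8% at CG18549 and at most 34.7% at Ugalt. Of the 8 strongest, mRpL41 (22.8%) and eIF6 (37.6%, the highest of the 8) are not printed. The eEF1gamma window, 35 bp upstream of the TSS, has 47.5% GC.

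The rule allowed only summits up to 500 bp upstream of the TSS, so their range follows from it. Within that span they were densest from 101 to 200 bp. The median distance was 162 bp, with quartiles of 100 and 263 bp and a range from 3 to 499 bp. The zone from 101 to 150 bp held 159 summits, the most of any 50-bp step, or 246.8 per Mb of DNA that met the rule, and the step from 451 to 500 bp held 21, or 39.07 per Mb. The DNA that met the rule came to 6039875 bases, 4.41% of the genome. The density counts only positions where the rule could be met. Nearest inside the limit were ph-p at 499 bp (signal 1634.7), Npc2b at 498 bp (85.0) and stv at 497 bp (159.8). Nearest outside were the peaks at CG6040 at 507 bp (79.0), Ogdh at 510 bp (145.4) and CG17896 at 512 bp (675.9).

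**Figure D1:**
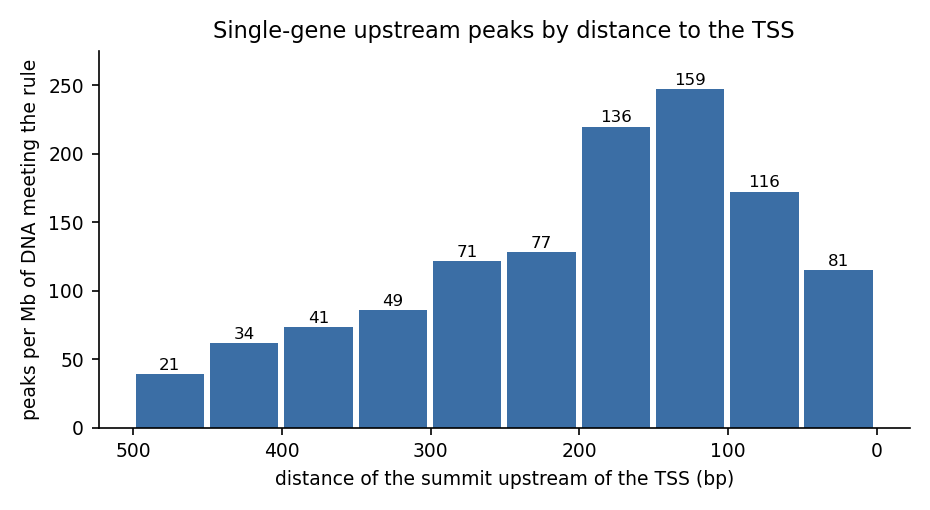
Bars give the number of single-gene upstream peaks per Mb of DNA that met the rule (y axis) in steps of 50 bp upstream of the TSS (x axis, bp, TSS at the right). Numbers above bars are peaks; the tallest bar, 101 to 150 bp, stands for 159 peaks and the step from 451 to 500 bp for 21.

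In place, 423 of the 785 summits were between genes, 264 were inside the gene they served and in no other coding gene, and 73 were inside another coding gene. Some of the 73, such as those of MFS10 and TRAM, were also inside the gene they served. The other 25 were in noncoding genes only. Of the 264, 221 were in an intron, 42 in a 5' UTR and 1 in coding sequence, upstream of a later start site. The 264 had a median signal of 137.2 and the 423 between genes one of 145.9. The share above the list median was 53.8% among the 264 and 58.4% between genes (Fisher exact test, odds ratio 0.829, adjusted p = 0.306), and GC content was 34.8% in both. For 497 peaks the nearest TSS was the 5' end of the gene, and for the rest it was an internal start. The next coding gene upstream ran in the same direction for 455 peaks and head to head for 330, at a median distance of 1008 and 2557 bp. The head-to-head neighbour was within 1000 bp for 73 peaks, which the limit of 500 bp around the summit lets in. A noncoding TSS lay within 500 bp of 41 summits.

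Single-gene upstream peaks were no denser on the X chromosome than on the autosomes. The X held 138, or 131.8 per Mb of DNA that met the rule, and arms 2L, 2R, 3L and 3R together held 644, or 130.6 per Mb (ratio 1.01, 95% exact interval 0.833 to 1.21, exact binomial test, p = 0.925). With a promoter limit of 200 bp in place of 500 bp the ratio was 0.753 (exact binomial test, p = 0.00917). Chromosome 4 held 3 and the Y chromosome 0. Median signal was 170.8 on the X and 129.2 to 149.2 on the 4 arms, a difference that was not tested.

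The peaks served 735 genes, and the strongest stood upstream of genes of varied function. Signal had a median of 143.1, with quartiles of 94.4 and 239.5 and a range from 2.06 to 2570.4. The median signal of each peak's match was 80.3 in replicate 1 and 64.6 in replicate 2. CG14100 (FBgn0036889) led with a pooled signal of 2570.4, with 1271 in replicate 1 and 1305 in replicate 2. Ugalt (FBgn0024994), a UDP-galactose transporter, had 2449.4, with 1346 in replicate 1 and 1115 in replicate 2. mRpL41 (FBgn0034001), part of the large subunit of the mitochondrial ribosome, had 2269.4, with 1157 in replicate 1 and 1115 in replicate 2. All 3 were high in both replicates and lay 94, 41 and 141 bp upstream. Of the 100 conservative peaks with the highest signal 39 were single-gene upstream peaks, and of the 300 highest 111.

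The next genes included ones that act in chromatin, RNA and metabolism. ph-p (FBgn0004861), of Polycomb repressive complex 1, had 823.9 in replicate 1 and 828.7 in replicate 2, and its summit was in its own intron. PNPase (FBgn0039846), a mitochondrial exoribonuclease, had 899.0 in replicate 1 and 689.8 in replicate 2, also in an intron of the gene. CG18549 (FBgn0038053) had 908.5 in replicate 1 and 494.4 in replicate 2. These 3 were high in both replicates, and CG18549 was the least even of them. eIF6 (FBgn0034915), a ribosome assembly factor, had 714.3 in replicate 1 and 689.0 in replicate 2. Gapdh2 (FBgn0001092), a glycolytic dehydrogenase, had 907.4 in replicate 1 and 387.6 in replicate 2, the widest gap among the 10 strongest.

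The other 17 of the 25 strongest had signals of 772.5 to 1163.5. Among them were CG1635 (1163.5), Fkbp14 (1151.3), a prolyl isomerase, Sox14 (977.3), an ecdysone-induced transcription factor, and amon (945.7), a prohormone convertase. They also took in MFS10 (960.9), CG1888 (924.4), SLC5A11 (908.2), a sodium solute transporter, Tina-1 (901.9), CG1142 (856.1), CG31145 (841.8) and papi (827.9), a Tudor protein of the piRNA pathway. moody (796.1), a receptor of the blood-brain barrier, CG11857 (794.4), CG11357 (787.1), TRAM (782.1), MFS18 (775.3) and Rtnl1 (772.5), a reticulon of the endoplasmic reticulum, closed the list. Of the 25 strongest by either replicate alone, 18 were shared by both replicates. Of all 735 served genes 29.9% had only a CG number for a name, against 43.7% of all protein-coding genes.

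**Figure D2:**
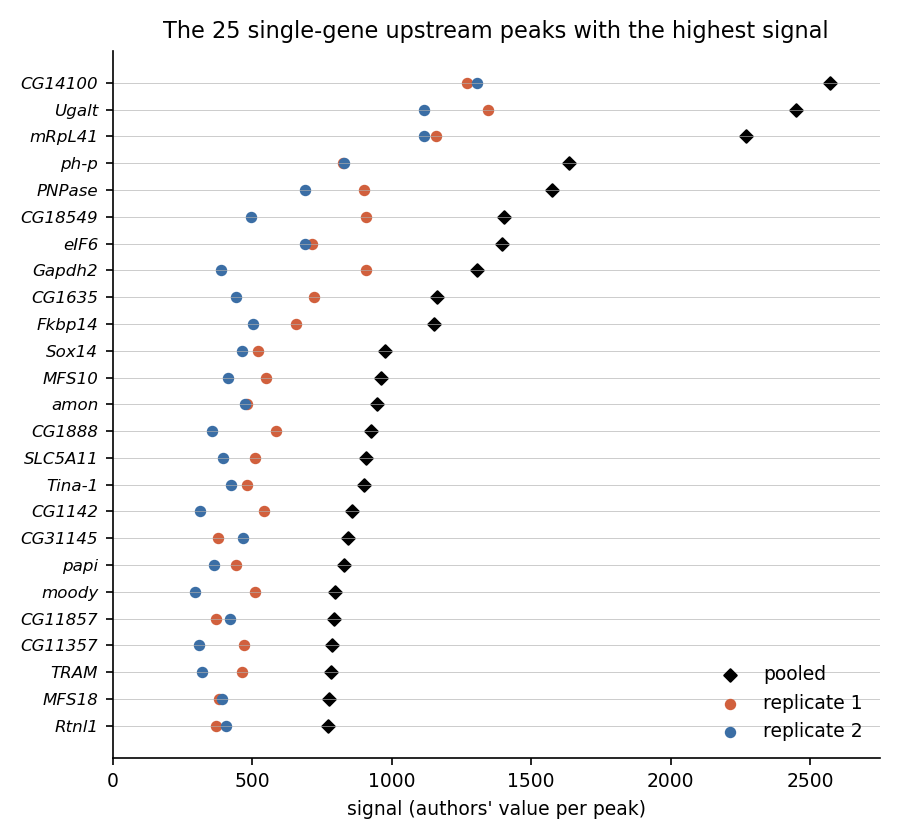
Each row is 1 of the 25 single-gene upstream peaks with the highest signal, named by the gene served; points give the authors' signal per peak (x axis) in replicate 1, in replicate 2 and pooled. The pooled values run from 2570.4 at CG14100 to 772.5 at Rtnl1, and at Gapdh2 replicate 1 (907.4) lies far above replicate 2 (387.6).

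Most peaks overlapped the list of each replicate, more often that of replicate 1. The conservative list was chosen by agreement between these same 2 replicates, so high recovery and correlated signals follow in part from that choice. Of 785, 568 overlapped a thresholded peak of both replicates, 148 of replicate 1 only, 38 of replicate 2 only and 31 of neither. Replicate 1 had the higher signal at 531 of the 779 peaks with a value in both, with a median ratio of 1.22 and quartiles of 0.929 and 1.65. Across these peaks the log signals had a Pearson correlation of 0.828 and the signals a Spearman correlation of 0.744, given as a description. Recovery in both lists was 72.4% (69.1 to 75.4) for single-gene upstream peaks, 73.0% (69.0 to 76.7) for shared upstream peaks (Fisher exact test, odds ratio 0.967, adjusted p = 0.799) and 59.1% (53.2 to 64.7) for downstream peaks (odds ratio 1.81, adjusted p = 0.000191). The share in replicate 1 was 91.2% against 86.6% of shared upstream peaks (Fisher exact test, odds ratio 1.60, adjusted p = 0.0144), and in replicate 2 it was 77.2% against 82.3% (0.729, adjusted p = 0.0381). At a promoter limit of 200 bp the first of these was 0.66 (Fisher exact test, adjusted p = 0.144).

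The balance between the replicates differed from that of shared upstream peaks. Replicate 1 was higher at 68.2% of single-gene upstream peaks, against 53.5% of shared upstream peaks (Fisher exact test, odds ratio 1.86, adjusted p = 7.61e-07). The odds ratio was 1.83 among summits with GC content below the list median and 1.75 among the others. Against all other conservative peaks, at 68.3%, it was 0.992 (Fisher exact test, adjusted p = 0.929), and against downstream peaks, at 72.0%, it was 0.834 (adjusted p = 0.316). Signal lay above the list median of 128.1 at 56.2% of single-gene upstream peaks, 58.1% of shared upstream peaks (0.926, Fisher exact test, adjusted p = 0.527) and 44.2% of downstream peaks (1.62, adjusted p = 0.0015). The last was 1.33 in replicate 2 alone (Fisher exact test, adjusted p = 0.155) and 1.22 at a global irreproducible discovery rate (IDR) of 0.001 (adjusted p = 0.617).

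**Figure D3:**
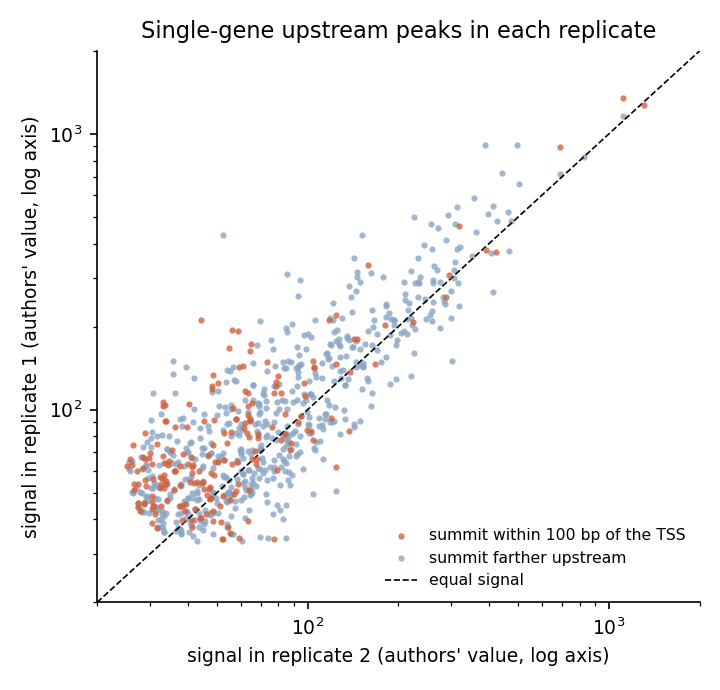
Each point is a single-gene upstream peak, with its signal in replicate 2 on the x axis and in replicate 1 on the y axis (authors' values, log axes). Red points have the summit within 100 bp of the TSS and blue points lie farther upstream; 531 of 779 points lie above the dashed line of equal signal.

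GC content was low at the summit and higher toward the gene. The 101-base windows at the 785 summits averaged 34.9% ± 10.3 GC (SD), against 38.5% ± 10.6 in windows centred 300 bp farther upstream. The summit had the lower value for 476 of 785 (60.6%, p = 1.05e-11 by the exact sign test). At 8428 promoters without a peak, windows centred 162 bp upstream had 37.4% ± 11.0. On the upstream side the dip was shallower than at shared upstream peaks, whose means were 31.2% at the summit and 43.6% at 300 bp. These upstream windows are unlike, since that of a shared peak can lie within another gene whose TSS is nearby. In 21-bp windows 300 bp toward the gene, the means were 46.7% for single-gene and 49.4% for shared upstream peaks. GC content was below the list median of 31.7% at 40.5% of single-gene upstream peaks, 58.3% of shared upstream peaks (Fisher exact test, odds ratio 0.488, adjusted p = 9.37e-10) and 27.5% of downstream peaks (1.79, adjusted p = 0.00012). The paired difference did not hold in replicate 1 alone, where GC content was lower in 49.2% (exact sign test, p = 0.927), against 67.5% in replicate 2 alone. The 568 peaks in both lists had 33.3% ± 9.54 GC at the summit (lower in 65.1%), and the 148 in replicate 1 only had 40.1% ± 11.5 (lower in 43.9%).

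**Figure D4:**
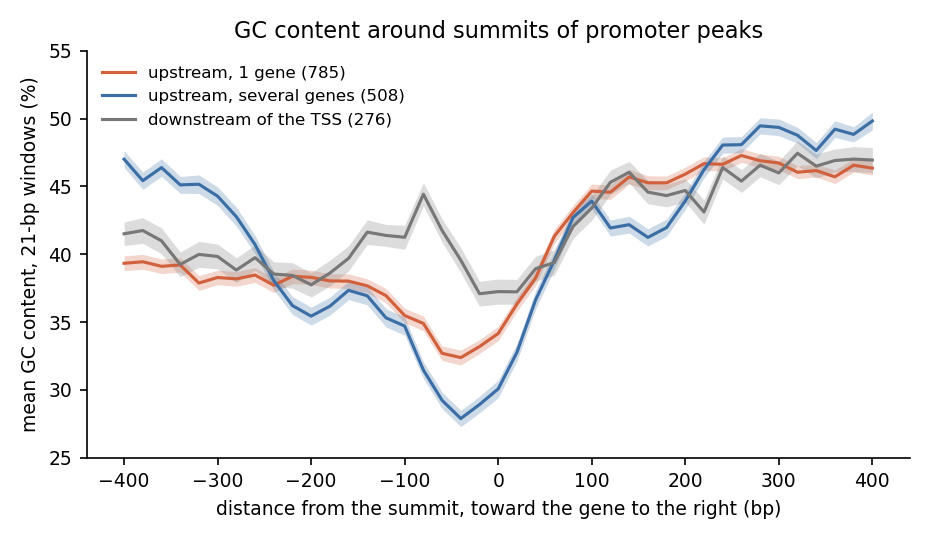
Mean GC content in 21-bp windows (y axis, %) is plotted against distance from the summit (x axis, bp, with the gene to the right) for single-gene upstream, shared upstream and downstream peaks; bands are the standard error over peaks. Single-gene upstream peaks dip at the summit and stay near 38% GC upstream, where shared upstream peaks climb again.

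Distance to the TSS divided these peaks in GC content, signal and replicate support. The split at 100 bp was made after the values by distance were seen, and the p-values of near against far peaks are not independent of that choice. The 197 summits within 100 bp had 42.3% ± 10.6 GC, against 32.4% ± 8.83 at the 588 farther upstream. GC content was below the list median at 18.3% of the near summits and 48.0% of the far ones (Fisher exact test, odds ratio 0.243, adjusted p = 2.94e-13). Relative to the window 300 bp upstream, GC content was lower at only 31.5% of near summits (exact sign test, p = 4.04e-07) but at 70.4% of far ones (p = 3.24e-28). Both directions also held in each replicate alone. With the comparison window toward the gene in place of upstream, it was lower at 62.9% of near summits, so the direction there depends on the side. Promoters without a peak had 41.2% ± 10.1 GC at 59 bp and 37.1% ± 10.8 at 200 bp, the median distances of the near and far peaks.

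Near peaks were also weaker and less often in both lists. Their median signal was 113.0, against 155.7 at far peaks, and 43.1% were above the list median against 60.5% (Fisher exact test, odds ratio 0.495, adjusted p = 4.56e-05). Both replicate lists held 58.4% of near peaks and 77.0% of far peaks (Fisher exact test, odds ratio 0.418, adjusted p = 3.52e-06). Replicate 1 was higher at 77.4% of near peaks and 65.1% of far peaks (Fisher exact test, odds ratio 1.84, adjusted p = 0.00181). The zone from 101 to 200 bp held 295 peaks and 56 of the 100 strongest, and the first 100 bp held 10. The 100 strongest peaks had 30.0% ± 8.75 GC against 35.6% ± 10.3 at the other 685, and 57.0% against 38.1% lay below the list median (Fisher exact test, odds ratio 2.15, adjusted p = 0.000712).

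The DRE was more frequent at the near summits. It was in 20 windows (2.55%), against 8 of the windows 300 bp upstream (exact McNemar test, odds ratio 2.60, adjusted p = 0.112). Of the 20 peaks, 15 were within 100 bp of the TSS, which is 7.61% of near peaks against 0.85% of far peaks (Fisher exact test, odds ratio 9.61, adjusted p = 7.72e-06). At promoters without a peak the word was in 3.85% of windows at 59 bp and 0.59% at 200 bp. The strongest peaks with the word were at Alg3 (492.0), a mannosyltransferase of N-glycosylation, CG1827 (477.7) and eEF1gamma (335.4), a subunit of the translation elongation factor. The 20 peaks with the word had a median signal of 111.9. It was 113.0 for all single-gene upstream peaks within 100 bp of the TSS and 143.1 for all 785.

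The words at the summit were set against the window 300 bp upstream. TTAAAA was in 34.9% of windows at the summit and 23.1% of those upstream, with an odds ratio of 1.81. It was added to the words as the leading 6-mer of an earlier analysis of all peaks of this series, so its frequency is a description and no test of it is given. With p-values adjusted over all 25 words, TTAAAA among them, 2 other words passed. AATAAA, the letters of the polyadenylation signal, was in 34.5% and 26.8% (1.43, exact McNemar test, adjusted p = 0.0141). GAGAGA, the site of the GAGA factor, was in 4.33% and 7.77% (0.538, exact McNemar test, adjusted p = 0.0462). With TTAAAA left out of the words, AATAAA passed (exact McNemar test, adjusted p = 0.027) and GAGAGA did not (adjusted p = 0.065). Promoters without a peak held TTAAAA in 26.8%, AATAAA in 29.9% and GAGAGA in 5.42% of windows. AATAAA did not pass in replicate 1 alone (1.01), in the optimal list (1.03), with a limit of 200 bp (1.21), with 5' ends only (1.31) or in wider windows (1.19). GAGAGA turned to 1.59 in replicate 1 alone (exact McNemar test, adjusted p = 0.0302). It did not pass in the optimal list (0.973), with a limit of 200 bp (0.653), with 5' ends only (0.606) or in wider windows (1.0). The core of Ohler motif 7, CATCNCTA, came next, in 2.80% against 0.892% (3.0, exact McNemar test, adjusted p = 0.0508).

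Against shared upstream peaks, GAGAGA was more frequent and TAATTA less so. GAGAGA was in 4.33% of single-gene upstream windows and 0.787% of shared ones (Fisher exact test, odds ratio 5.70, adjusted p = 0.0022). The homeodomain core TAATTA was in 7.52% and 15.6% (0.441, Fisher exact test, adjusted p = 0.000396). Promoters without a peak held GAGAGA in 5.42% and TAATTA in 9.04% of windows, both above the single-gene upstream peaks. Downstream peaks held them in 1.81% and 7.61%. TTAAAA was in 34.9% and 45.7%, an odds ratio of 0.638 given as a description. In replicate 2 alone GAGAGA did not pass (3.04, Fisher exact test, adjusted p = 0.309), nor did it at an IDR of 0.001 (5.91, adjusted p = 0.129) or with a limit of 200 bp (5.41, adjusted p = 0.134). TAATTA did not pass with a limit of 200 bp (0.647, Fisher exact test, adjusted p = 0.273). Against downstream peaks no word passed (Fisher exact tests, 2 at an unadjusted p below 0.05), and the Motif 1 core GGTCACAC came nearest, in 0.764% and 3.26% (0.228, Fisher exact test, adjusted p = 0.0528). None of 17 words with a direction passed for orientation relative to the gene (exact binomial tests, 2 at an unadjusted p below 0.05), and CATCNCTA ran with the gene in 18 of 24 matches (adjusted p = 0.193).

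Most 6-mers that passed were made of A and T alone. Of 2080 6-mers, counted with their reverse complements, 14 were more frequent at the summit than 300 bp upstream (0.673% of those tested) and 3 less frequent (0.144%). Of the 14, 10 were made of A and T alone, TTAAAA among them as a description only. Of all 2080, 36 are made of A and T alone, and 35 of the 36 had an odds ratio above 1. The leading 5 were AAAATA in 37.1% against 23.6% of windows (exact McNemar test, odds ratio 1.83, adjusted p = 5.2e-05), then TTAAAA as above, TTTAAA in 23.2% against 12.9%, ATTTAA in 29.0% against 18.2% and AAATAT in 33.6% against 23.3%. One of the others was CGATAG, in 7.01% against 2.68% (2.74, exact McNemar test, adjusted p = 0.0225), which overlaps the letters of the DRE. Against shared upstream peaks 4 were more frequent (0.192%) and 16 less frequent (0.769%), 15 of the 16 made of A and T alone. TTAAAA is again among them as a description only. Here 1 of the 36 made of A and T alone had an odds ratio above 1. Mean GC content at the summit was 34.9% for single-gene and 31.2% for shared upstream peaks, and the comparison was not adjusted for it. The leading 5 there were AATTAT in 16.4% against 32.1% of windows (Fisher exact test, odds ratio 0.416, adjusted p = 2.3e-07), then AAATTA in 23.9% against 38.2%, AATAAT in 21.7% against 34.8%, AAATAA in 32.5% against 45.9% and AATTTA in 22.8% against 34.3%. Promoters without a peak held these 5 in 17.4%, 21.7%, 18.9%, 28.0% and 20.8% of windows, in that order, nearer the single-gene than the shared upstream peaks. No 6-mer separated the 100 strongest peaks from the other 685 (Fisher exact tests, 0 of 2080 past the adjusted threshold and 87 with an unadjusted p below 0.05). The nearest was TATAAA, in 35.0% against 17.7% (2.51, Fisher exact test, adjusted p = 0.289), in a comparison added after the data were seen.

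Genes for glycolytic enzymes and cytoplasmic ribosomal proteins were served more often than the background of 5.26% of 13968 protein-coding genes, or 6.97% of the 10540 genes with DNA that met the rule. These are counts with no test. The intervals of translation factors, heat shock proteins and the Notch pathway, given below, also lay above 5.26%. Those of heat shock proteins and the Notch pathway took in 6.97%. Of 13 glycolytic genes 6 were served (46.2%, interval 23.2 to 70.9), among them Gapdh2 (1305.9), Eno (487.2), an enolase, and Hex-A (303.4), a hexokinase. The others were Pgk (215.0), Ldh (183.7) and PyK (172.5). Their summits were 158 to 309 bp upstream. The share was 23.1% with a limit of 200 bp, and the same with only the 5' end of each gene counted as a TSS.

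Of 86 cytoplasmic ribosomal protein genes 17 were served (19.8%, interval 12.7 to 29.4), with RpL23A (343.4), RpL24 (250.2) and RpS4 (239.5) the strongest. Their summits were close to the TSS, with a median of 31 bp against 162 bp for all, and 16 of 17 were within 100 bp. The exception was RpS26 at 141 bp, with a pooled signal of 2.06, the lowest of all. Signal was higher in replicate 1 at all 17, with ratios from 1.13 to 3.47 and a median of 1.61. Replicate 1 was also higher at 68.2% of all single-gene upstream peaks and at 77.4% of those within 100 bp. RpS26 had 46.9 in replicate 1 and 29.5 in replicate 2, both above its pooled signal. RpL24 had 194.1 in replicate 1 and 56.0 in replicate 2, and RpS4 had 150.5 and 104.4. The share with DNA that met the rule was 17 of 55 (30.9%), and 53 of the 86 had a promoter peak of any kind. The share of all protein-coding genes with a promoter peak of any kind is not given here. The backgrounds above therefore do not apply to that count, nor to the like counts of other lists below. Across the settings tried, the share ran from 12.8% to 29.1%.

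Of 73 mitochondrial ribosomal protein genes mRpL41 (2269.4) and mRpL4 (94.2) were served (2.74%, interval 0.755 to 9.45, which takes in the background). A promoter peak of any kind stood at 19 of them, and 19 had DNA that met the rule, of which 10.5% were served. Translation factors had 8 of 53 (15.1%, interval 7.85 to 27.1), led by eIF6 (1395.7), eEF1gamma (335.4) and eIF3c (179.6), and their median distance was 51 bp. Heat shock protein genes had 4 of 25 (16.0%, interval 6.40 to 34.7). The strongest were the small heat shock proteins Hsp27 (423.5) and Hsp26 (197.9) and the Hsp90 gene Hsp83 (257.9). Hsp83 had 211.1 in replicate 1 and 44.2 in replicate 2. The Notch pathway had 4 of 24 (16.7%, interval 6.68 to 35.9), with the corepressor gro (503.7), numb (372.9), an inhibitor of the receptor, and E(spl)m3-HLH (117.7), a target. Signal was higher in replicate 2 at the strongest peak of each of the 4. Replicate 1 was higher at 68.2% of all single-gene upstream peaks.

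Other lists with at least 2 served genes had few of them, and their intervals took in the background. The Polycomb group had 2 of 19, at ph-p (1634.7) and Scm (71.6). Neural development genes had 3 of 35, at Sox14 (977.3), elav (709.3), a neuronal RNA-binding protein, and da (112.0), a bHLH factor. The Wingless and Hedgehog list had 2 of 27, at the kinase sgg (533.4) and at nkd (372.5). Muscle and mesoderm genes had 2 of 24, at tin (390.4), a heart regulator, and sls (314.0), a titin-like protein. The cell cycle list had 3 of 41, with Dp (419.3), the partner of E2F, BubR1 (130.7) and CycH (85.1). Rab GTPases had 3 of 36, at Rab5 (257.2), Rab26 (75.6) and Rab11 (70.9). RNA polymerase subunits had 2 of 30, at Polr2F (182.4) and Polr2E (90.5), and ubiquitin-conjugating enzymes 2 of 12, at ben (202.0) and eff (83.1).

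A further 13 lists had 1 served gene each. These genes were Vps15 (190.7), deltaCOP (185.3), MED4 (178.0), Taf4 (163.9), BEAF-32 (159.4), an insulator protein, Vha16-1 (131.2), pum (119.3), a translational repressor, Obp99b (115.3), SP2353 (112.8), E(bx) (103.7), ctp (94.3), ND-B17 (87.9) and Cyp317a1 (75.0). The oxidative phosphorylation list had 1 of 87 and cytochrome P450 genes 1 of 85. The other 18 of the 45 lists had no served gene. None of 180 sensory receptor genes was served (an upper limit of 1.67%), none of 121 cuticle protein genes (2.48%) and none of the histone genes (2.61%), of which 28 had DNA that met the rule. No sensory receptor or cuticle protein gene had a promoter peak of any kind, a count for which no share of all genes is given. None of 48 proteasome genes (6.25%) or of 33 aminoacyl-tRNA synthetase genes (9.09%) was served, although 8 genes of each list had a promoter peak of another kind. Only 29 and 13 of these genes had DNA that met the rule, and both limits lie above the background of 5.26%. No expression data were used, so the part of promoter activity in these shares was not tested.

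**Figure D5:**
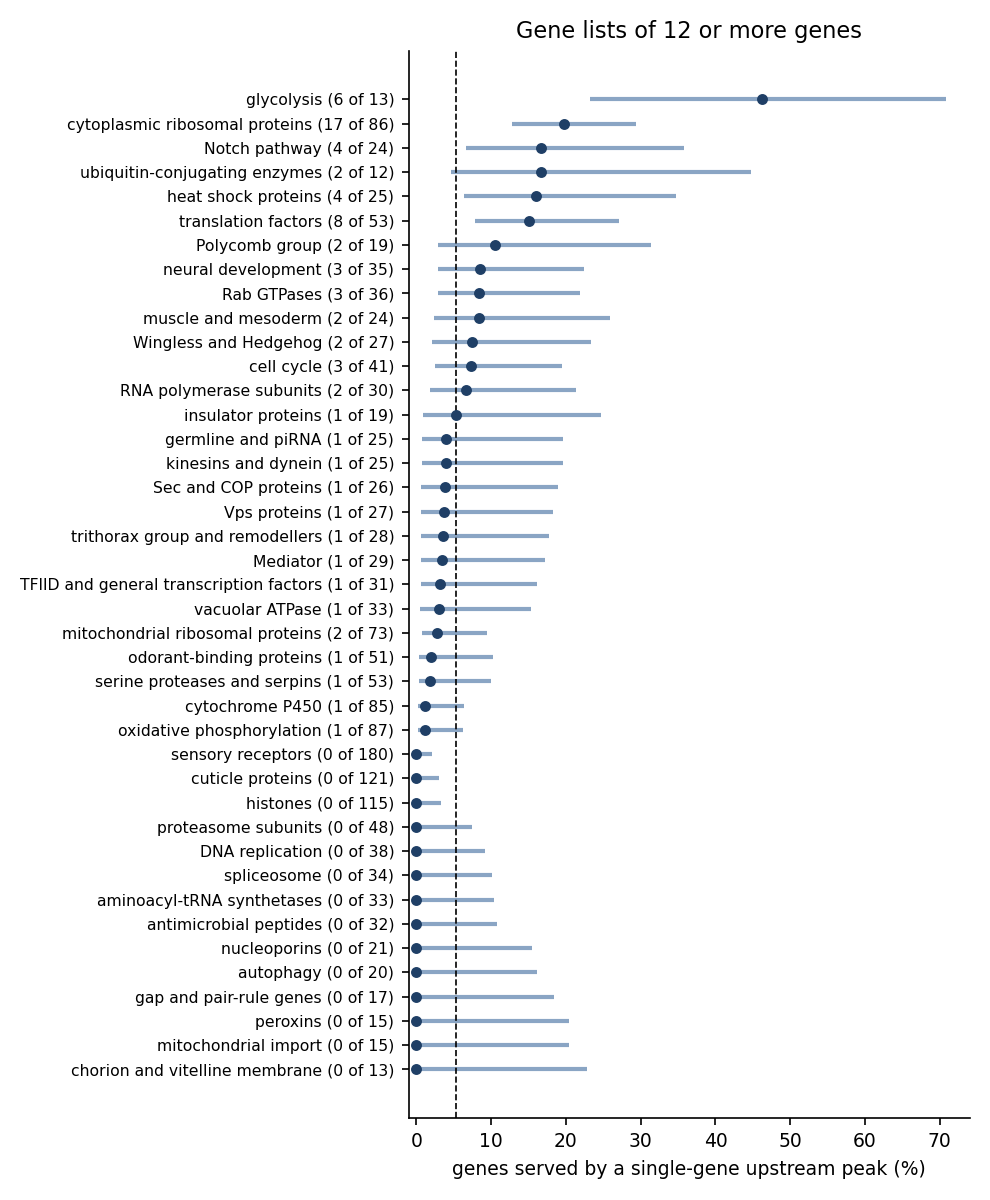
Each row is a gene list of 12 or more genes, with the percentage of its genes served by a single-gene upstream peak (points, x axis) and its 95% Wilson interval (lines); the counts stand beside the names and the dashed line is the share of all protein-coding genes, 5.26%. Glycolysis (6 of 13) and cytoplasmic ribosomal proteins (17 of 86) lie right of the line, and sensory receptors and cuticle proteins are at 0.

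A total of 692 genes had 1 such peak, 37 had 2, 5 had 3 and 1 had 4. In 25 of the 43 genes with several, the peaks belonged to different start sites. Rtnl1 was the gene with 4, each at its own TSS, with signals of 772.5, 559.1, 157.6 and 111.8 at 229 to 321 bp upstream. Its peaks had 371.1 and 404.8, 287.6 and 259.6, 69.2 and 92.3, and 52.4 and 55.5 in replicates 1 and 2. Ptpmeg2, a tyrosine phosphatase, had 3 at 3 start sites (500.6, 470.7 and 306.8), and dnc, a cyclic AMP phosphodiesterase, had 3 (482.1, 372.3 and 187.2). Moe, the cytoskeletal linker moesin, had 312.6, 129.3 and 113.1, and CG5004 had 170.3, 131.4 and 103.3. CG31886 had 415.1 and 80.6 at separate start sites, and a fainter peak of 9.94. Pairs at separate start sites included PAN3 (707.1 and 98.4), brwl (605.7 and 288.0), gro (503.7 and 88.7) and spi (352.2 and 107.2), which encodes an EGF receptor ligand.

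Peaks at the same start site were often a strong and a faint neighbour. At 20 of the 785 the pooled signal was below the signal of both replicates, and 18 of these overlapped a stronger conservative peak. Examples are the second peaks of Cht7 (3.22, beside 140.6), Dnz1 (5.47, beside 154.3) and Men (18.6, beside 101.2). Without such peaks the count of words more frequent at the summit was 4 in place of 2, with TTAAAA in both counts. After overlapping peaks were merged, 764 single-gene upstream peaks were left.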

How the data were processed

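The authors deposited peak lists on dm6 per the file notes: a ranked and a thresholded list per replicate, and ranked, conservative and optimal lists of the series. Per the labels, chromatin was sonicated to 200 to 800 bp. The aligner and the peak caller were not given in the sources used here. The peak signal is a value the authors deposited, and the ranked lists hold the deposited −log10 of the global IDR, at which thresholded peaks had 0.01 or less. A summit is the peak start plus its deposited offset. TSSs came from Ensembl release 115 (BDGP6) and bases from the RefSeq release 6 sequence, and peak ends fitted its arm lengths. A replicate's signal is that of its highest overlapping ranked peak, and recovery needs an overlap of at least 1 base. Windows are 101 bases. Words and 6-mers were counted on both strands, by exact McNemar tests with 0.5 added to discordant counts in the odds ratio, or by Fisher's exact test (two-sided). Adjusted p-values are Benjamini-Hochberg values within each family of tests, at a threshold of 0.05. The windows farther upstream were centred 300 bp away. The functions were tested on simulated data.

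The peaks, lists, words and tests were chosen with earlier results of these data known. Genes were named by rule: the 25 peaks with the highest signal, up to 3 of each list, genes with several peaks, and those nearest the limit of 500 bp. The remaining 3 glycolytic genes, RpS26, nebu, and the genes with the DRE were named after their values were seen, as were the tests within the peaks. Upper limits at 0 are 3 counts of the total. Alternatives were other lists, limits, windows and overlaps. Scripts ran in Python 3.11.15 with scipy 1.17.1, numpy 2.4.6, pandas 2.3.3 and matplotlib 3.10.9.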

Additional observations from a re-analysis of the deposited data

How the results depend on the processing

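No paired analysis was possible because the labels give 1 group only. Of 347 values under alternatives, 232 stayed as they were. For a test, this means the same direction and side of the threshold, but a change of direction was not counted where neither value passed. The signal odds ratio against shared upstream peaks, 0.926 and 1.08 at an IDR of 0.001, is such a case. For a count it means within 1.5 times, and for a median or share within the 95% interval. Merging overlapping peaks left all of its values so. The alternatives for near and far summits, the words without TTAAAA and the removal of peaks with a pooled signal below both replicates were chosen after seeing the data. The cause of the changes below was not tested. Depth is unknown and was not set against any change.

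The number of single-gene upstream peaks was 490 at a global IDR of 0.001 and 1271 in the optimal list, serving 3.33% and 8.26% of genes, and 3.77% with only the 5' end of each gene. The median distance was 148 bp in the optimal list, 110.5 bp with a limit of 200 bp and 151.5 bp with 5' ends only. In the lists of single replicates it was 144 to 180 bp, serving 4.57% to 7.12% of genes. The signal odds ratio against shared upstream peaks passed in the optimal list (0.607), and that against downstream peaks did not pass at an IDR of 0.001 (1.22) and ran from 1.33 to 2.00 in single replicates. The X to autosome ratio was 0.753 with a limit of 200 bp.

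Recovery at an IDR of 0.001 passed nowhere: in replicate 1 the odds ratio was 2.49 against shared upstream and 2.22 against all other peaks, in replicate 2 it was 0.601 against shared upstream, 1.45 against downstream and 1.18 against all others, and in both it was 1.60 against downstream and 1.34 against all others. In replicate 1 against shared upstream peaks it was 1.12 in the optimal list and 1.12 with overlaps of 50%, and 0.66 with a limit of 200 bp, where it was 1.06 against all others and, in replicate 2 against shared upstream peaks, 0.729. With 5' ends only, it was 1.64 in replicate 1 against downstream peaks, which passed, and 0.734 in replicate 2 against shared upstream peaks, which did not. Against downstream peaks it passed in replicate 1 with overlaps of 50% (1.55), and in both against shared upstream peaks in the optimal list (0.633).

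GC content was lower at the summit in 51.5% in the optimal list and in 49.2% to 67.5% in single replicates. For near summits with the window toward the gene it was lower in 62.9%. GAGAGA at the summit had an odds ratio of 0.364 to 1.59 in single replicates, the higher one without replicate 2.

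Words more frequent at the summit numbered 2, and 4 at an IDR of 0.001, 5 in the optimal list, 1 with a limit of 200 bp, 6 in windows of 100 bp to each side, 9 with the window toward the gene, 4 without peaks of low pooled signal, 1 without TTAAAA and 3 to 6 in single replicates. Words less frequent numbered 1, and 2 at an IDR of 0.001, 0 with a limit of 200 bp, with 5' ends only, in wider windows and without TTAAAA, 3 with the window toward the gene and 0 to 1 in single replicates. Each count of words more frequent at the summit takes in TTAAAA as a description only, except the count without it. 6-mers more and less frequent at the summit numbered 14 and 3, with TTAAAA among the 14. They numbered 22 and 16 at an IDR of 0.001, 7 and 0 in the optimal list, 0 and 0 with a limit of 200 bp, 5 and 0 with 5' ends only, 33 and 13 in wider windows, and 270 and 372 with the window toward the gene. In single replicates they numbered 7 to 32 and 2 to 26.

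Words that differed from shared upstream peaks numbered 3, and 6 in the optimal list, 1 with a limit of 200 bp, 8 in wider windows and 2 to 6 in single replicates. The 3 take in TTAAAA as a description only. From downstream peaks, 0 differed, and 4 in the optimal list, 1 with 5' ends only, 5 in wider windows and 0 to 4 in single replicates. 6-mers more and less frequent than at shared upstream peaks numbered 4 and 16. They numbered 0 and 5 at an IDR of 0.001, 20 and 33 in the optimal list, 2 and 8 with a limit of 200 bp and 0 and 8 with 5' ends only. Those more frequent numbered 19 in wider windows and 2 without peaks of low pooled signal, and single replicates gave 0 to 28 and 4 to 33. Words with an orientation past the threshold numbered 0, and 2 in the optimal list, 1 with a limit of 200 bp, 1 with 5' ends only, 1 in wider windows and 0 to 2 in single replicates.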
